A study of Mus musculus with 15 samples.

Results

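Glutamate receptors, their accessory subunits and the vesicular glutamate transporters were followed through 5 sorted populations of the embryonic mouse thalamus. The gene set comprised 32 symbols, and a gene was measured by the array row that names it and no other gene, or by the row with the highest mean where several did. A row was found for 31 of the 32 (of 22180 genes in all), and the NMDA receptor gene Grin1 was not analysed here. The 31 were 4 AMPA, 5 kainate, 6 NMDA, 1 delta and 7 metabotropic receptor genes, 5 accessory subunit genes and 3 transporter genes.

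Ionotropic glutamate receptors are ligand-gated channels assembled from subunits of the AMPA, kainate, NMDA or delta family, and metabotropic receptors act through G proteins. Accessory subunits set how channels traffic and gate, and vesicular transporters load glutamate into synaptic vesicles. Thalamic relay neurons are glutamatergic and use Slc17a6 (VGLUT2) early, and their synapses with cortex, retina and other inputs form and mature in late gestation and after birth.

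All 15 arrays came from embryos heterozygous for CreER and EGFP placed at the Gbx2 locus, with a Cre-dependent tdTomato reporter at Rosa26, on a C57BL/6 background. A tamoxifen dose of 4 mg was given to the dams, on E9 for cells collected on E18.5 and on E9.5 for cells collected on E14.5. There were 3 biological replicates for each of 5 groups, namely the red and green cells of E14.5 and the red, green and double-labelled cells of E18.5. Green reported current expression from the Gbx2 locus, a thalamic homeodomain gene, and red marked descendants of cells with active Cre, so the red label depends on that same locus and on when tamoxifen was given. The labels give neither the sorting gates nor the number of embryos behind a replicate, so p-values measure the spread between these samples.

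Levels are log2 signals as deposited, with mean ± SD of 3 arrays. Means of all values were 6.17 to 6.19 in the 9 E18.5 arrays and 5.63 to 5.65 in the 6 E14.5 arrays, and the median of the 16635 genes tested was higher by 0.67 at E18.5. Differences between stages are therefore given after each stage was centred on its own median, while levels are not. Replicate 1 of E18.5 red and of E18.5 double-labelled cells had a narrower range of values (SD 1.34 and 1.31, where the remaining arrays of that stage had 1.44 to 1.51), and results that change without these 2 narrow-range arrays are given both ways. The labelled tissue was checked against marker lists. A list of 8 thalamic neuron genes, Slc17a6 of the gene set among them, had a mean level of 8.74 to 9.38 over the 15 arrays. For 8 pan-neuronal genes the mean level was 9.23 to 10.37. A passing gene had a Benjamini-Hochberg adjusted p under 0.05 in limma over all genes tested, from 1 model of all arrays with a variance weight for each stage. In such sorted pools, fewer cells of a type and less RNA per cell cannot be told apart.

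Red and green cells at E14.5 were compared first, that is tdTomato-marked descendants against cells then expressing from the Gbx2 locus. Glutamate receptor genes were higher in red cells. Of 31 genes 12 rose and 1 fell relative to green cells, where 5.24% of all genes rose and 5% fell. The median log2 difference was 0.26 over the 31 genes and 0 over all genes. AMPA (Gria1, Gria2, Gria4), kainate (Grik1, Grik3), NMDA (Grin2b, Grin2d) and metabotropic (Grm2, Grm3, Grm5, Grm7, Grm8) subunits were among those that rose, and none of the 5 accessory subunits or 3 transporters passed. Among these 8 genes, the unadjusted p was lowest for Gsg1l (0.01), Slc17a6 (0.015) and Cnih2 (0.017).

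Kainate receptors carried the widest difference. Grik3, a kainate subunit that gives receptors of low glutamate affinity, read 8.86, 9.17 and 8.98 in the E14.5 red arrays and 7.68, 6.50 and 6.43 in the green arrays. It was 4.39-fold higher in red cells (log2 difference 2.14, SE 0.23, adjusted p 3e-05). The groups did not overlap, as for 27.9% of all genes tested, and green replicate 1 stood above the other green arrays. Grik1, which forms kainate receptors alone or with other subunits, was 2.58-fold higher (6.43 ± 0.31 against 5.06 ± 0.17, adjusted p 0.00012), with 6.73, 6.45 and 6.12 in red and 5.25, 5.02 and 4.92 in green arrays. The other kainate genes, Grik2, Grik4 and Grik5, differed by 0.41, 0.30 and 0.25, with adjusted p 0.073, 0.052 and 0.11, and Grik2 and Grik4 passed with 1 weight per array (0.018 and 0.012). Grik2 is the widespread low-affinity subunit, and Grik4 and Grik5 are the high-affinity subunits that need a low-affinity partner.

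AMPA receptor genes rose in 3 of 4 cases. Gria1 read 7.28, 7.47 and 7.34 in red and 6.81, 6.36 and 6.27 in green arrays, a 1.85-fold difference (SE 0.14 on the log2 scale, adjusted p 0.00064). Gria4, a subunit prominent in young and thalamic neurons, read 7.03, 6.72 and 6.86 in red and 6.34, 6.15 and 5.95 in green arrays, 1.65-fold higher (adjusted p 0.00044). Neither gene had an overlap between the groups. Gria2, whose edited form makes AMPA receptors nearly impermeable to calcium, was 1.44-fold higher (9.64 ± 0.28 against 9.11 ± 0.16, adjusted p 0.026). That call was lost under 7 of 14 alternatives, with an adjusted p of up to 0.23. Gria3 differed by 0.12 (adjusted p 0.6).

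Among NMDA receptor genes, Grin2b and Grin2d, the GluN2 subunits typical of embryonic brain, were higher in red cells. Grin2b read 7.56, 7.79 and 7.37 in red and 6.84, 6.69 and 6.09 in green arrays (2.04-fold, adjusted p 0.00036). Grin2d read 7.06, 6.87 and 6.58 in red and 6.23, 5.88 and 5.95 in green arrays (1.76-fold, adjusted p 4e-04). All 3 red arrays lay above all 3 green arrays for both genes. Grin2a and Grin2c, GluN2 subunits that in most regions gain importance after birth, differed by 0.12 and -0.09, and the GluN3 subunits Grin3a and Grin3b by 0.17 and 0.02, with adjusted p from 0.59 to 0.94. Second array rows of Grin2b and Grin2d differed by 0.23 and 0.16, less than the rows used here. Grid1, a delta receptor subunit that acts in synapse adhesion, differed by 0.35 (adjusted p 0.075).

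Metabotropic receptors of all 3 groups differed. Grm5, the group I receptor coupled to phospholipase C, read 6.98, 6.78 and 6.84 in red and 5.70, 5.13 and 5.02 in green arrays, 2.99-fold higher (adjusted p 3.9e-05). Grm8, a group III autoreceptor coupled to inhibitory G proteins, read 7.62, 7.06 and 7.0 in red and 6.35, 5.42 and 5.32 in green arrays, 2.89-fold higher (adjusted p 0.00026). Green replicate 1 was the highest green array for both genes, without reaching the red arrays. The same held for Grik3, Grik1, Gria1, Gria4, Grin2b, Grin2d and Grm7. Grm7, a low-affinity group III receptor of presynaptic terminals, was 1.46-fold higher (5.49 ± 0.09 against 4.95 ± 0.06, adjusted p 0.00093), and its second row differed by 0.16. Its green level lay under the median of each E14.5 green array (5.135 to 5.147), as did those of Grik1 (5.06) and Cnih3 (4.73). Differences from these E14.5 green levels start from a low signal.

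The group II receptors Grm3 and Grm2 were 1.92-fold and 1.33-fold higher (adjusted p 0.0073 and 0.026). Both lost the call with 1 equal weight for all arrays (adjusted p 0.19 and 0.34) and when single E14.5 arrays were left out: Grm3 without green replicate 2 or 3 (0.055 and 0.058), and Grm2 without any of 5 arrays, at up to 0.16. Grm4 was the 1 gene lower in red cells, reading 5.48, 5.49 and 5.66 against 6.15, 5.93 and 5.84, a 1.35-fold difference (adjusted p 0.0073, and 0.097 with equal weights). Grm6, the receptor of retinal ON bipolar cells, differed by 0.16. Of the 13 calls 9 were kept in every alternative, those of Gria1, Gria4, Grik1, Grik3, Grin2b, Grin2d, Grm5, Grm7 and Grm8.

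**Figure D1:**
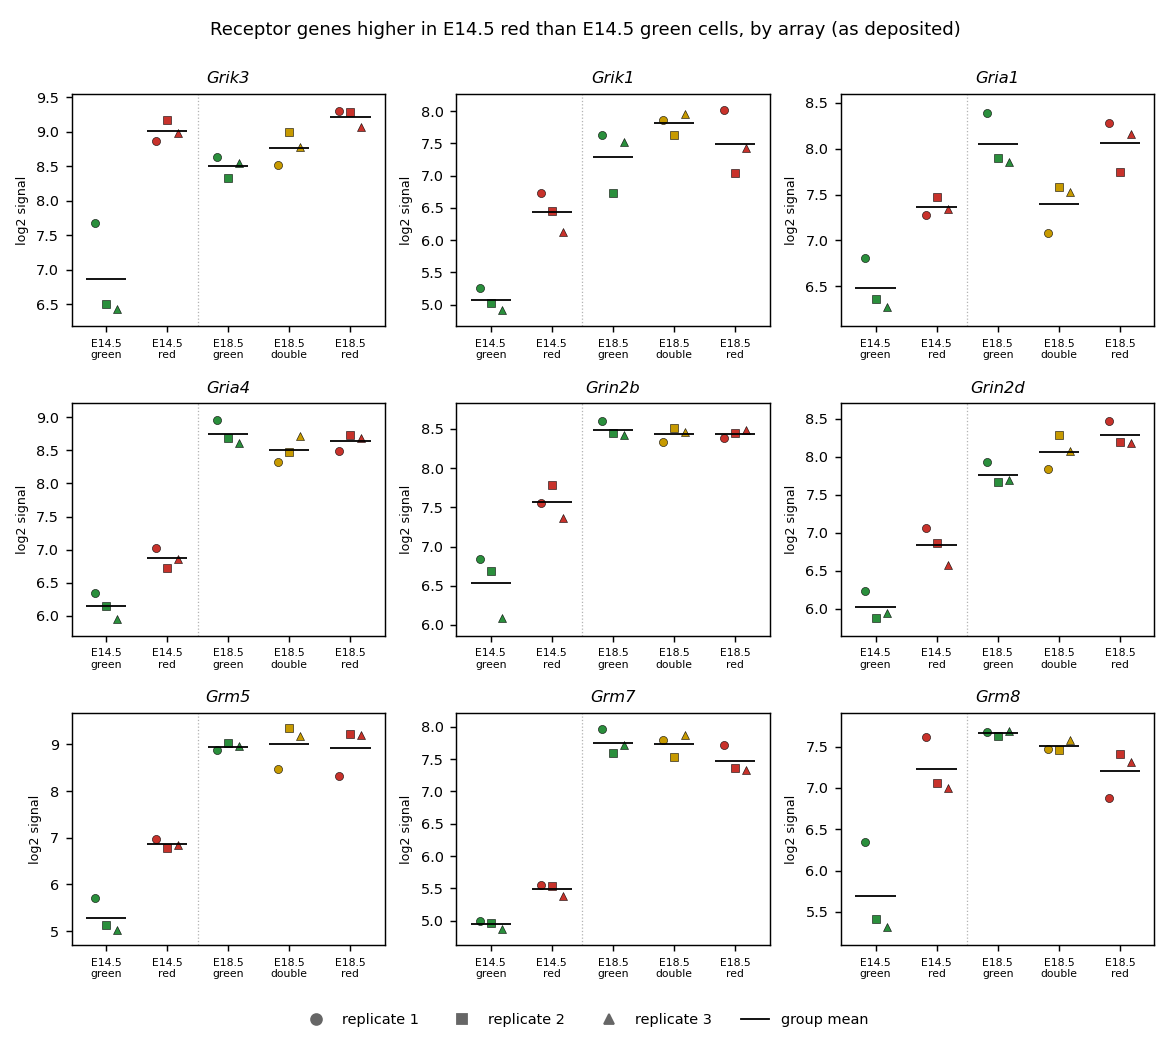
Log2 signal as deposited (vertical axis) of the 9 receptor genes whose E14.5 red-green call was kept in every alternative, in each of the 5 groups. Symbols are single arrays and bars group means. In each panel all 3 E14.5 red arrays lie above all 3 E14.5 green arrays. At E18.5 the red and green arrays overlap for all but Grik3 and Grin2d, higher in red, and Grm8, lower in red. Of all genes tested, 27.9% have no overlap between red and green arrays at E14.5 and 15.3% at E18.5.

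The transporters showed no such rise. Slc17a6 read 9.54, 9.46 and 9.51 in red and 9.79, 10.14 and 9.96 in green arrays, lower in every red array but not past the threshold (log2 difference -0.46, interval -0.82 to -0.10, adjusted p 0.11). It passed as lower with only the E14.5 arrays fitted (adjusted p 0.028), without the narrow-range arrays (0.008), with 1 weight per array (0.022) and with a replicate block (0.034). Slc17a7 (VGLUT1) and Slc17a8 (VGLUT3) differed by -0.14 and -0.08. Among accessory subunits, Gsg1l differed by -0.30 (5.73 ± 0.21 against 6.04 ± 0.04, adjusted p 0.081, and 0.025 with 1 weight per array), Cnih2 by 0.26 and Neto1 by -0.03.

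Markers of cell state moved with this comparison, and their part in it was not tested. Progenitor genes were lower in red cells: 5 of 9 passed, among them the proliferation gene Top2a (log2 difference -1.89), the radial glial gene Fabp7 (-1.40) and the proliferation gene Mki67 (-1.17). The list's mean level was 6.51 to 6.72 in red and 7.06 to 7.24 in green arrays. Pan-neuronal genes had a mean level of 9.48 to 9.52 in red and 9.23 to 9.32 in green arrays, with Syt1 (0.92), Dcx (0.59) and Stmn2 (0.44) past the threshold, 3 of 8. Of the green arrays, replicate 1 had the highest pan-neuronal (9.32) and the lowest progenitor mean level (7.06). The thalamic list lay at 8.74 to 8.85 in red and 8.94 to 9.07 in green arrays, with Lhx2 (-1.03), Lhx9 (-0.89) and Gbx2 (-0.77) lower and Rora (1.06) and Lef1 (0.35) higher. Sorting on EGFP selects for activity of the Gbx2 locus, which bears directly on the Gbx2 value. The GABAergic list was at 5.68 to 5.92 in red and 5.52 to 5.64 in green arrays, with Gad2 (0.82) and Dlx6 (0.36) higher, 2 of 7. The midbrain dopamine list was at 6.06 to 6.20 and 5.64 to 5.88, with Slc18a2 (1.92) higher. Ranges of the microglial list (5.02 to 5.18 in red, 5.06 to 5.12 in green) and the oligodendrocyte list (4.91 to 5.04 and 4.91 to 5.07) overlapped. The astrocyte list overlapped too (5.27 to 5.44 and 5.24 to 5.29), with 1 of 7 genes higher and 1 lower. Higher in red without overlap were the habenula list (5.65 to 5.89 and 5.48 to 5.64, 1 of 6 higher) and the endothelial list (4.74 to 4.83 and 4.68 to 4.73, 0 passing). So was the 1 measured erythroid gene (4.98 to 5.14 and 4.74 to 4.76), which passed.

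**Figure D2:**
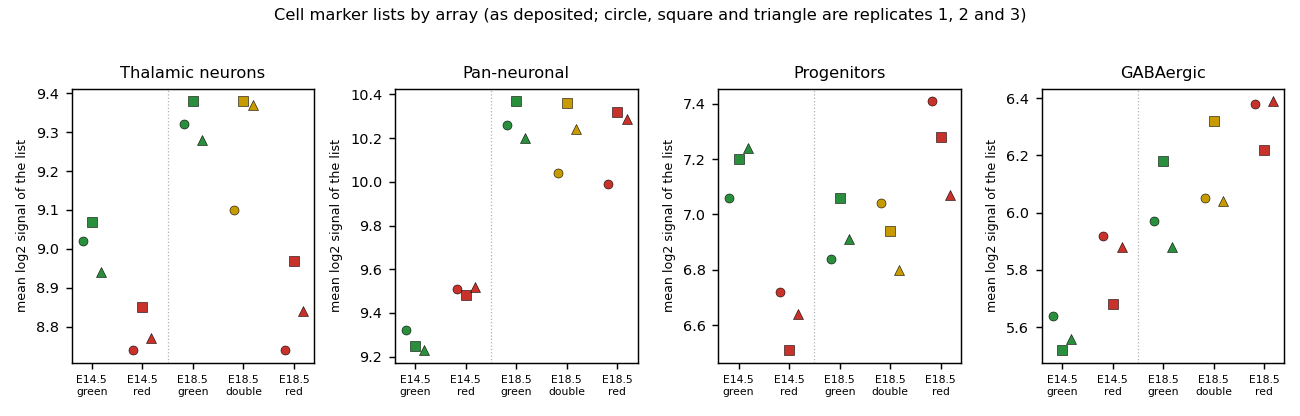
Mean log2 signal (vertical axis) of 4 marker lists in each array of the 5 groups. At E14.5 the red arrays lie at 9.48 to 9.52 for pan-neuronal genes against 9.23 to 9.32 in green arrays, and at 6.51 to 6.72 for progenitor genes against 7.06 to 7.24.

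The sequences before the transcription start are shown for those of the 9 genes higher in every alternative that have a single start in the RefSeq promoter table (GRCm38.p6), namely Gria4, Grik3 and Grin2d. Each is the 250 bases upstream of the start, read 5′ to 3′ on the gene's strand, with matches to the GC box (GGGCGG on either strand) in capitals. Gria4 lies at chr9:4796235-4796484 (minus strand), Grik3 at chr4:125490446-125490695 (plus strand) and Grin2d at chr7:45866682-45866931 (minus strand).
Gria4: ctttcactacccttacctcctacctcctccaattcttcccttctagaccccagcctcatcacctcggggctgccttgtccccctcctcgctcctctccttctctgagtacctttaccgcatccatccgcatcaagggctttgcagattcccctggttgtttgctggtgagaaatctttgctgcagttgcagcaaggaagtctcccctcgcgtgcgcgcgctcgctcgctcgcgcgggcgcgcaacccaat
Grik3: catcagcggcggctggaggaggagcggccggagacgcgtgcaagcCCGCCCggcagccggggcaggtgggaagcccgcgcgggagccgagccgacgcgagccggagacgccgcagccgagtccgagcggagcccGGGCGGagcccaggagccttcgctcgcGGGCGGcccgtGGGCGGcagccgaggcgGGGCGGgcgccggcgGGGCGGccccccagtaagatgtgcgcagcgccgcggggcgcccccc
Grin2d: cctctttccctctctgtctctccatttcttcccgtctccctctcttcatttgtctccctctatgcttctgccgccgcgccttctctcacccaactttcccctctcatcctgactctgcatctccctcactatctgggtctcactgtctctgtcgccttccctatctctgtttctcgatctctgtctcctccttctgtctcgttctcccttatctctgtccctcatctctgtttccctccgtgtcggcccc
The Grik3 window holds 6 GC boxes and has a GC content of 82.0%, against 0 GC boxes at 58.8% for Gria4 and 0 at 54.4% for Grin2d. The GC box occurs in 32.7% of all 32851 windows of this length, whose median GC content is 52.4%. Each of the 3 windows has 1 E-box (CANNTG on either strand), which is found in 66.2% of windows.

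Other genes of the glutamate synapse differed in both directions at E14.5, more of them higher in red cells. Of 58 on a list of AMPA partners, scaffolds, delta partners, uptake and signalling genes 50 were tested. Relative to green cells 16 rose and 4 fell in red cells (median 0.10), where 5.24% of all genes rose and 5% fell. The AMPA partners Shisa9 (1.66) and Cacng4 (0.55) and the scaffold genes Dlg2 (0.79) and Dlgap1 (0.74) rose with the smallest adjusted p, from 6.7e-05 to 0.00039. The glutamate transporter Slc1a2 (-0.79), the scaffold Homer2 (-0.79), the cerebellin Cbln2 (-1.03) and the AMPA partner Cacng5 (-0.41) fell.

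The same populations were compared at E18.5, where few of these genes passed. Of 31 genes 1 passed, against 0.265% of all genes, and the median difference was 0.04. Gsg1l, an accessory subunit that binds AMPA receptors and slows their recovery from desensitization, read 7.51, 7.84 and 7.39 in red and 6.55, 6.54 and 6.70 in green arrays. It was 1.98-fold higher in red cells (log2 difference 0.98, SE 0.18, adjusted p 0.029), and the groups were well apart. The call was lost without any single one of the 6 arrays, with adjusted p from 0.052 to 0.22 and differences from 0.85 to 1.08, and with the E18.5 arrays alone (0.088). The midbrain dopamine list moved with it, at a mean level of 7.62 to 7.94 in red, 6.36 to 6.55 in green and 6.76 to 6.84 in double-labelled arrays, with 4 of 6 genes higher in red than in green cells, among them Th (2.01) and Slc6a3 (2.03). The thalamic list stood at 8.74 to 8.97 in red and 9.28 to 9.38 in green arrays, with 2 of 8 lower, Gbx2 (-2.07) and Lhx9 (-0.99). Of 6 habenula genes 3 passed, with Chrnb3 (1.65) and Nr4a2 (1.26) higher and Calb2 (-2.41) lower in red cells, while the list's mean level was 6.78 to 7.10 in red, 6.84 to 7.10 in green and 6.64 to 6.92 in double-labelled arrays. Nr4a2 is on the midbrain dopamine list as well. Chrnb3 stood at 6.77 ± 0.23 in red, 5.12 ± 0.10 in green and 5.13 ± 0.28 in double-labelled cells. The progenitor list was at 7.07 to 7.41 in red and 6.84 to 7.06 in green arrays, with 0 of 9 genes passing. At E14.5 that list had been lower in red cells. The GABAergic list was at 6.22 to 6.39 in red and 5.88 to 6.18 in green arrays, with 0 of 7 genes passing. The part of these lists in the Gsg1l difference was not tested.

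Genes that differed at E14.5 did not pass at E18.5. All 3 red arrays lay above all 3 green arrays for Grik3, by 0.72 on average (9.22 ± 0.13 against 8.50 ± 0.15, interval -0.14 to 1.57, adjusted p 0.79). Red and green arrays had no overlap for 15.3% of all genes. Grik1 differed by 0.19, Gria1 by 0.01, Gria4 by -0.11, Grin2b by -0.05, Grm5 by -0.04 and Grm8 by -0.47. Unadjusted p was under 0.05 for 5 genes: Gsg1l, Grin2d (0.52), Neto1 (0.48), Grin3a (-0.88) and Grm2 (-0.45). Of all genes 6.17% had such a p. Half-widths of the 95% intervals at E18.5 were 0.32 to 0.86, and 0.18 to 0.50 at E14.5, so smaller differences were detectable at the earlier stage. Grin3a, a GluN3 subunit that lowers calcium entry, read 6.75, 8.53 and 7.92 in red and 8.60, 8.58 and 8.66 in green arrays, and the lowest value is from a narrow-range array.

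**Figure D3:**
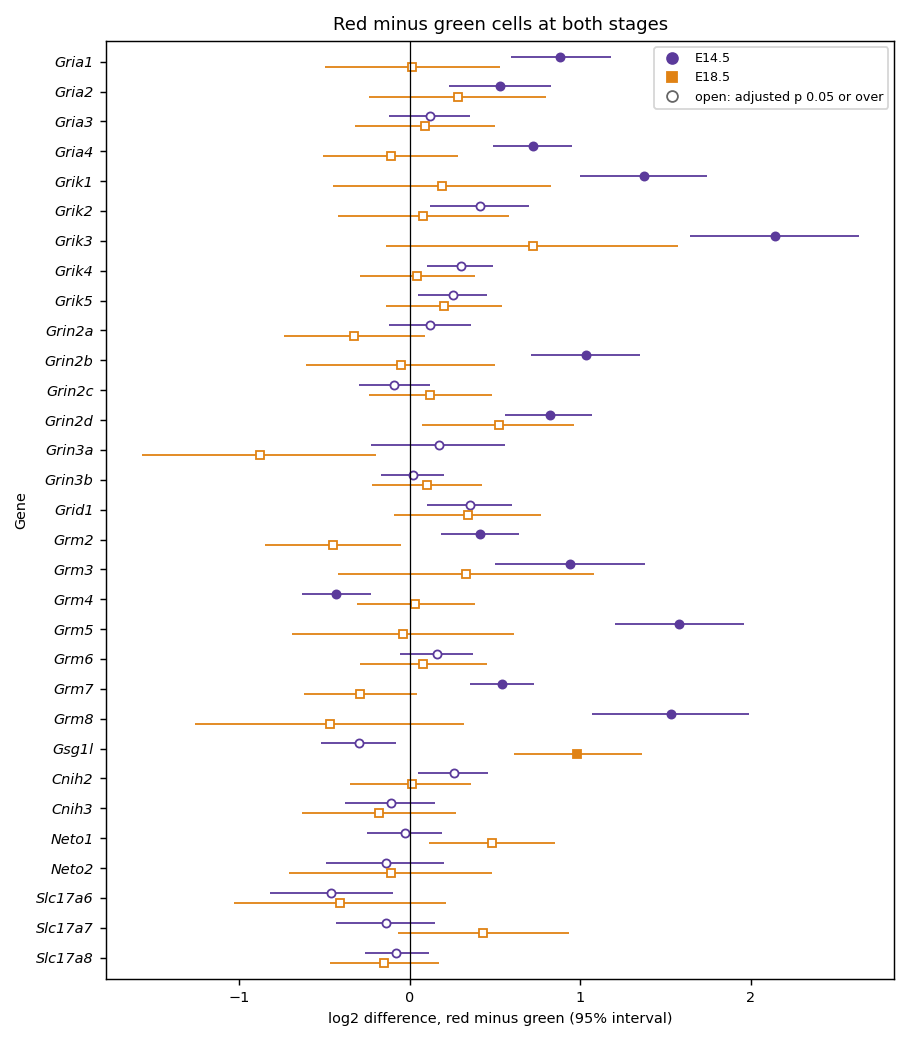
Log2 difference, red minus green, of the 31 genes at E14.5 (circles) and E18.5 (squares), with 95% intervals. Filled symbols passed an adjusted p of 0.05: 13 at E14.5, from Grm4 at -0.43 to Grik3 at 2.14, and Gsg1l (0.98) at E18.5.

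Whether the red-green difference itself changed between the stages was tested as an interaction. It did for 4 of 31 genes, against 1.18% of all genes. Tamoxifen was given on E9 for E18.5 and on E9.5 for E14.5 cells, and double-labelled cells formed a group only at E18.5. A change with stage cannot be told apart from these differences in labelling and sorting. Grm8 changed from 1.53 to -0.47 (change -2.0, SE 0.43, adjusted p 0.035), Grm5 from 1.58 to -0.04 (-1.62, 0.038) and Grm7 from 0.54 to -0.29 (-0.83, 0.036). Gsg1l changed the other way, from -0.30 to 0.98 (1.28, SE 0.20, adjusted p 0.0059), and kept the call in all 19 alternatives. The calls of Grm5, Grm7 and Grm8 were lost when most single arrays were left out, at an adjusted p of at most 0.15 for Grm5 and Grm8 and 0.17 for Grm7. Grm5 also lost it with equal weights (0.051) and no low filter (0.066), Grm8 with no low filter (0.065), and Grm7 with equal weights (0.054), quantile normalization (0.27) and the mean of its rows (0.19). Without the narrow-range arrays Grik1 (-1.43, adjusted p 0.033), Grin2b (-1.05, 0.048) and Grm2 (-0.61, 0.05) passed as well. Without E14.5 green replicate 1, 8 genes passed, and Grik3 was among them (-1.82, adjusted p 0.00028, against -1.42 and 0.21 with all arrays). Outside the 31 genes, the AMPA partner Cacng3, a TARP, changed from 0.95 to -1.45 (change -2.40, adjusted p 0.0011), and Homer2 changed by 1.85 (0.007), Dlg2 by -0.92 (0.028), Cacng4 by -0.75 (0.033) and Plcb1, a phospholipase C gene, by -1.18 (0.033).

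Double-labelled cells, which carried both labels at E18.5, were set against each of the other populations. Against green cells 0 of 31 genes passed in limma (0% of all genes). An unadjusted p under 0.05 was found for 2 genes, Gria1 (-0.65) and Neto1 (0.40), and for 3.12% of all genes. Gria1 read 7.08, 7.58 and 7.53 in double-labelled arrays against 8.39, 7.90 and 7.86 in green and 8.28, 7.75 and 8.16 in red arrays, below every array of both other groups (adjusted p 0.98 and 1). Over all genes, double-labelled arrays had no overlap with green arrays for 8.15% and with red arrays for 4.18%. Differences from green cells ran from that of Gria1 to 0.52 for Grik1, with interval half-widths of 0.32 to 0.86. With 1 weight per array 5 genes passed, Gria1 as lower and Grik1, Grik2, Grm3 and Neto1 as higher. Under that setting the count over all genes rose from 0 to 1110 of 16635. Whether the 5 are particular to this set was not tested.

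Against red cells 0 of 31 passed in limma (0.0481% of all genes). The unadjusted p was under 0.05 for 4, namely Gsg1l, Gria1 (-0.66), Grin3a (0.88) and Grm2 (0.45), and for 2.55% of all genes. Gsg1l stood at 6.84, 6.66 and 6.44 in double-labelled arrays, 0.94 below red cells (adjusted p 0.14) and 0.05 from green cells. Arrays of these 2 groups with the same number deviated together, and with replicate number as a block Gsg1l passed (-0.94, adjusted p 0.043), as it did without the narrow-range arrays (-1.07, 0.018). Over the 3 populations together 0 of 31 genes passed limma's F test (0.0962% of all genes). In that test 5 of the 31, and 4.08% of all genes, had an unadjusted p under 0.05. Gsg1l (adjusted p 0.063) passed with the block (0.015) and, with Grm3 (0.042), without the narrow-range arrays (0.0067).

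Cells of E18.5 were then compared with those of E14.5. Stage cannot be told apart from the day of tamoxifen (E9 and E9.5) or from the separate double-labelled group, which only E18.5 had. In green cells 17 of 31 genes rose and 0 fell, where 14.2% of all genes rose and 19.7% fell. The median centred difference was 0.71 over the 31 genes and -0.07 over all genes. In red cells 12 rose and 0 fell, where 10.1% of all genes rose and 15.9% fell, with medians of 0.29 and -0.08. Unadjusted p was under 0.05 for 18 genes in green and 15 in red cells, and for 43.3% and 37.7% of all genes. The absence of falling genes depended on the setting. Without the narrow-range arrays 19 rose and 2 fell in green cells, the 2 being Neto2 (-0.39, adjusted p 0.0053) and Grin3b (-0.25, 0.042), and 12 rose and 2 fell in red cells, Grik5 (-0.32, 0.025) and Grin3b (-0.30, 0.039). With 1 weight per array Neto2 fell in green (0.019) and Grin3b in red cells (0.048), with equal weights Grm8 fell in red cells (-0.70, 0.046), and with the mean of a gene's rows Grin2c fell in green cells (-0.28, 0.037). As deposited, Neto2, Grin3b, Grik5 and Grin2c were higher at E18.5 in both populations, so these falls are relative to the shift of all genes. Every gene that passed was also higher at E18.5 in the values as deposited and after quantile normalization. As deposited, 30 of the 31 genes passed as higher in green and 28 in red cells. Of all genes, 12106 passed as higher and 415 as lower in green, and 12157 as higher and 193 as lower in red cells. The E14.5 arrays serve both these comparisons and the one between red and green cells, so the lists are not independent.

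Among metabotropic receptor genes 5 of 7 rose in green and 4 in red cells. Grm5 read 8.87, 9.02 and 8.97 in E18.5 green arrays against 5.70, 5.13 and 5.02 at E14.5, a centred rise of 7.97-fold (log2 3.00, SE 0.25, adjusted p 6.4e-07). In red cells it rose 2.60-fold (8.92 ± 0.51 against 6.87 ± 0.10, adjusted p 0.0012). Grm7 rose 4.38-fold in green (7.75 ± 0.19 against 4.95 ± 0.06, adjusted p 3.3e-08) and 2.46-fold in red cells (7.47 ± 0.21 against 5.49 ± 0.09, 7.6e-06). Its second row rose by less, by 0.82 and 0.65 on the log2 scale. Grm3, a group II receptor, rose 3.13-fold in green and 2.06-fold in red cells (adjusted p 0.00048 and 0.016), and the call in red cells was lost without E18.5 red replicate 2 (0.1) or 3 (0.086). Grm8 rose 2.47-fold in green cells (7.67 ± 0.03 against 5.69 ± 0.57, adjusted p 0.0039) and differed by -0.70 in red cells (7.20 ± 0.28 against 7.23 ± 0.34, adjusted p 0.1). Grm2 rose in green cells (0.71, adjusted p 0.0024) and differed by -0.15 in red. Grm4 rose in red cells (0.64, adjusted p 0.0028) and differed by 0.17 in green. Grm6 differed by 0.06 in green and -0.02 in red cells.

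Of NMDA receptor genes 3 of 6 rose in green and 2 in red cells. Grin3a read 8.60, 8.58 and 8.66 in E18.5 green arrays against 5.21, 5.06 and 5.29 at E14.5, 6.73-fold higher after centring (adjusted p 2.4e-06). In red cells it read 6.75, 8.53 and 7.92 against 5.47, 5.24 and 5.36, 3.25-fold higher (adjusted p 0.00036), and the log2 difference was 2.18 without the narrow-range arrays against 1.70 with them. Grin2d rose 2.09-fold in green and 1.70-fold in red cells (adjusted p 0.00023 and 0.0043), and its second row by 0.39 and 0.38. Grin2b rose 2.42-fold in green cells (8.49 ± 0.10 against 6.54 ± 0.40, adjusted p 0.00033) and differed by 0.19 in red cells (8.44 ± 0.06 against 7.57 ± 0.21, adjusted p 0.54), while its second row differed by -0.01 and -0.13. Grin2a, Grin2c and Grin3b did not pass in either population, with differences from -0.23 to 0.24, except under the settings given above for Grin2c and Grin3b.

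Of AMPA and kainate subunits, Gria4 rose 3.82-fold in green cells (8.96, 8.69 and 8.61 against 6.34, 6.15 and 5.95, adjusted p 3.9e-07) and 2.14-fold in red cells (8.49, 8.74 and 8.69 against 7.03, 6.72 and 6.86, adjusted p 0.00017). The centred stages did not overlap in either population, as for 60.6% of all genes in green and 40.4% in red cells. Gria1 rose 1.86-fold in green cells (adjusted p 0.0026) and differed by 0.03 in red. Gria2 differed by 0.21 in green and -0.04 in red cells and Gria3 by 0.32 and 0.29, none past the threshold. Gria3 passed without the narrow-range arrays, at 0.31 in green and 0.33 in red cells (adjusted p 0.014 and 0.025), and with 1 weight per array (0.011 and 0.025). Grik1 rose 2.95-fold in green cells (7.63, 6.73 and 7.52 against 5.25, 5.02 and 4.92, adjusted p 2e-04) and differed by 0.39 in red cells (adjusted p 0.27). Grik2 rose 1.85-fold in green and 1.47-fold in red cells (adjusted p 0.0024 and 0.044). In red cells that call was lost without the narrow-range arrays (0.074) and without any single E18.5 red array (up to 0.13). Grik3 rose in green cells (8.64, 8.33 and 8.54 against 7.68, 6.50 and 6.43; centred difference 0.96, adjusted p 0.034), with an overlap once the stages were centred and with adjusted p up to 0.14 when single arrays were left out. In red cells Grik3 differed by -0.46 (adjusted p 0.33), Grik4 by 0.05 and Grik5 by -0.13. In green cells Grik4 differed by 0.30 (adjusted p 0.086, and 0.038 without the narrow-range arrays). Grid1 rose in both, 1.96-fold in green and 1.95-fold in red cells (adjusted p 0.00038 and 0.00077; interaction -0.01, interval -0.51 to 0.49).

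**Figure D4:**
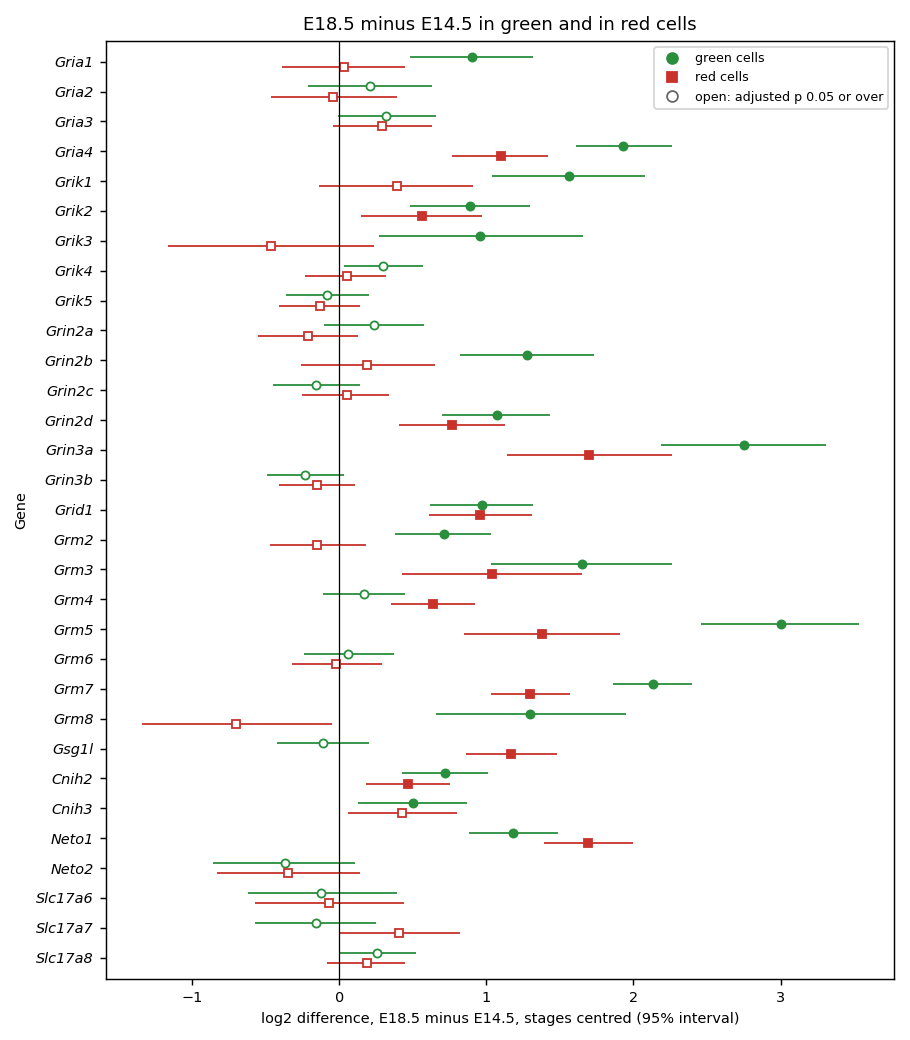
Log2 difference, E18.5 minus E14.5, after each stage was centred on its median, for the 31 genes in green (circles) and red cells (squares) with 95% intervals. Filled symbols passed an adjusted p of 0.05: 17 in green cells, up to 3.00 for Grm5, and 12 in red cells, up to 1.70 for Grin3a.

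Accessory subunits rose in 4 of 5 cases in at least 1 population. Neto1, a CUB-domain protein that modulates kainate receptors and associates with NMDA receptors, read 7.82, 8.02 and 8.30 in E18.5 green arrays against 6.20, 6.22 and 6.16 at E14.5 (2.27-fold after centring, adjusted p 2.1e-05). It read 8.42, 8.69 and 8.47 against 6.28, 6.05 and 6.16 in red cells (3.23-fold, adjusted p 1.9e-06). Its relative Neto2 differed by -0.37 in green and -0.35 in red cells (adjusted p 0.22 and 0.29, and 0.0053 in green without the narrow-range arrays) and read 8.38 and 8.85 in the narrow-range arrays, while the remaining E18.5 arrays read 9.38 to 9.69. Cnih2, a cornichon that slows AMPA receptor deactivation, rose 1.64-fold in green and 1.38-fold in red cells (adjusted p 0.00084 and 0.019), the latter lost without E18.5 red replicate 2 (0.11). Cnih3 rose in green cells (0.50, adjusted p 0.037), with an adjusted p of up to 0.33 when single arrays were left out. Gsg1l rose 2.25-fold in red cells (7.58 ± 0.23 against 5.73 ± 0.21, adjusted p 6.3e-05) and differed by -0.11 in green cells (6.60 ± 0.09 against 6.04 ± 0.04, adjusted p 0.59).

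Vesicular transporters did not pass in either population. Slc17a6 read 9.38, 10.49 and 10.45 in E18.5 red, 10.44, 10.69 and 10.42 in green and 9.55, 10.50 and 10.45 in double-labelled arrays, and differed between stages by -0.07 in red and -0.12 in green cells (intervals within -0.62 to 0.44). The 2 lowest values are from the narrow-range arrays. Slc17a7 differed by 0.41 in red and -0.16 in green cells and Slc17a8 by 0.19 and 0.26. Without centring all 3 transporters passed as higher at E18.5 in both populations.

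**Figure D5:**
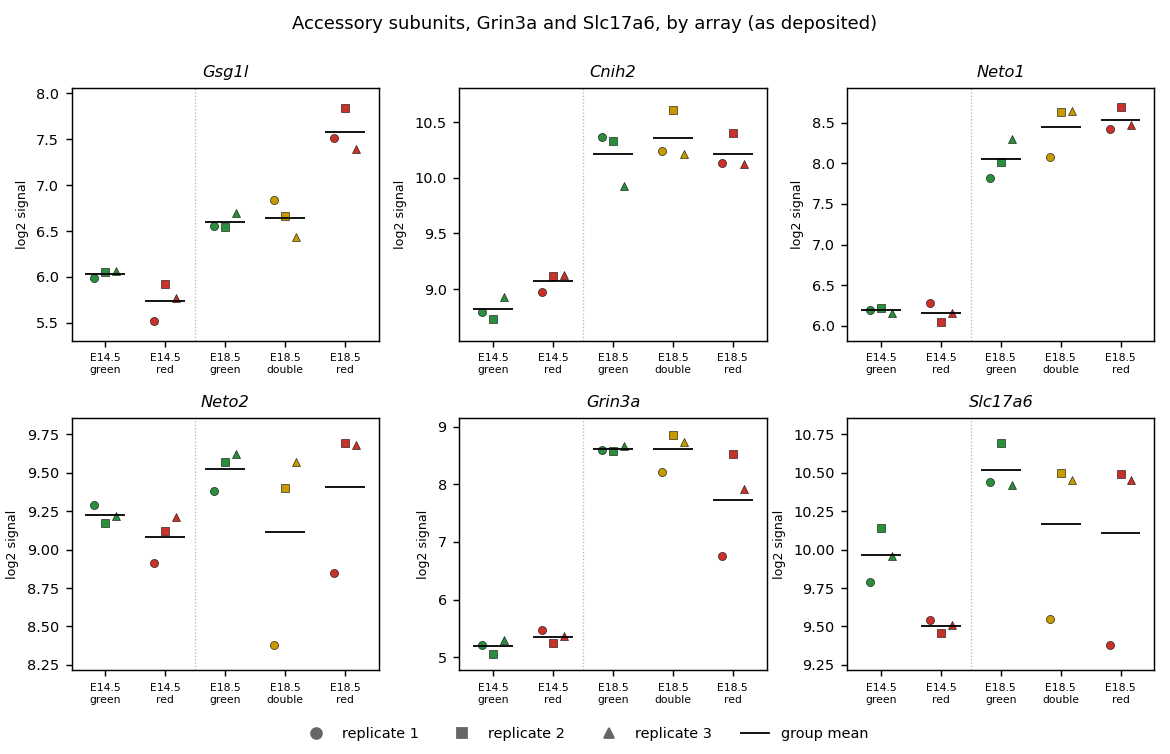
Log2 signal as deposited (vertical axis) of 4 accessory subunit genes, Grin3a and Slc17a6 in each array of the 5 groups, with bars at group means. Gsg1l is highest in E18.5 red arrays (7.39 to 7.84), and the circles in E18.5 red and double-labelled cells are the narrow-range arrays.

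On the wider glutamate synapse list 23 of 50 genes rose and 5 fell between the stages in green cells, and 18 rose and 4 fell in red cells, with medians of 0.40 and 0.25. Of all genes 14.2% rose and 19.7% fell in green cells, and 10.1% rose and 15.9% fell in red cells. In green cells the smallest adjusted p among rising genes were those of Dlg2 (1.63), Dlgap1 (1.85), Camk2b (1.74) and Camk2d (1.41), genes of the postsynaptic scaffold and its CaM kinase. In red cells they were those of Camk2b (1.22), Camk2d (0.97), Dlg4 (0.81), which encodes PSD-95, and Cbln1 (1.70), a cerebellin that bridges delta receptors to neurexins. The glutamate transporter Slc1a2 fell in both (-1.49 and -0.94), as did the scaffold gene Grip1 (-0.73 and -0.64) and the amino acid transporter gene Slc38a2 (-0.76 and -0.89), while Homer2 and Nptx1 fell in green (-0.84 and -0.47) and Slc1a3 in red cells (-0.78). Marker lists were read on the same centred scale. Pan-neuronal genes had a median stage difference of 0.03 in green (2 of 8 higher, 0 lower) and -0.12 in red cells (2 higher, 2 lower). Progenitor genes had one of -0.98 in green (7 of 9 lower) and -0.35 in red cells (3 lower, 2 higher). Thalamic neuron genes were lower at E18.5 for 4 of 8 in green and 5 of 8 in red cells (medians -0.32 and -0.45). Of 6 midbrain dopamine genes 4 were higher at E18.5 in red cells (median 0.96), the population in which Gsg1l rose, and 0 in green cells (0.08). Of 6 habenula genes 3 were higher in red and 1 in green cells, and this list shares Nr4a2 with the midbrain dopamine list. The part of these lists in the stage differences was not tested.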

How the data were processed

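Total RNA from sorted cells was amplified and measured on Affymetrix expression arrays. The authors deposited log2 signals per transcript cluster, made with Affymetrix Expression Console per the submitters' processing notes, and its version and summarization method are not given in the sources used here. Of 33794 rows 23521 named 1 gene, and 23328 of these matched RefSeq by Entrez identifier. The row with the highest mean stood for each of 22180 genes, and the lowest 25% by mean (under 5.07) were left out, which left 16635. All 31 genes of the set passed.

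Differences came from limma 3.58.1 in R 4.3.3, as 1 group-means model over all 15 arrays with a variance weight for each stage (0.647 for E18.5 and 1.92 for E14.5), since the median within-group SD was 0.218 at E18.5 and 0.122 at E14.5. P-values were adjusted by Benjamini-Hochberg over 16635 genes. Each stage was centred on its median, which leaves comparisons within a stage unaltered. Intervals are 95%. Arrays give no read depth, so their number limits the precision. Replicate numbers were checked for pairing: same-numbered E18.5 red and double-labelled arrays deviated from their group means together (correlations 0.67, 0.50 and 0.49), and the other pairs of groups had at least 1 correlation under 0.1. Genes were named as members of the set, or from the lists by smallest adjusted p. Alternatives were equal or per-array weights, quantile normalization, no low filter, the mean of a gene's rows, no centring, 1 stage alone, a replicate block, no narrow-range arrays and leaving out single arrays. The scripts were tested on simulated data. The members, lists and tests were chosen with earlier results of these data known.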

Additional observations from a re-analysis of the deposited data

Results flagged for a closer look

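The red-minus-green log2 difference changed between E14.5 and E18.5, by the interaction test in limma, for 4 genes of the set. It changed by -1.62 for Grm5, -0.83 for Grm7 and -2.0 for Grm8, and by 1.28 for Gsg1l. The Gsg1l call was kept in all 19 alternatives, while those of Grm5, Grm7 and Grm8 were lost in 13, 12 and 11 of them. Stage cannot be told apart from the day of tamoxifen in this test. Red cells were above green cells at E14.5 for the 3 metabotropic receptor genes, and at E18.5 for the AMPA receptor accessory subunit gene Gsg1l. Groups of 3 arrays are too small for a test of single outlying arrays.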

How the results depend on the processing

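Of 47 calls in the gene set 34 were kept in every alternative and 0 changed direction. With 1 array left out in turn, the genes of the set past the threshold numbered 0 to 0 for E18.5 red against green, 0 to 1 for double-labelled against red, 10 to 15 for E14.5 red against green, 9 to 12 and 15 to 17 between stages in red and green cells, 1 to 8 for the interaction and 0 to 1 for the F test. Among all genes the same ranges were 7 to 31, 4 to 13, 912 to 2405, 2974 to 4079, 3747 to 5180, 75 to 338 and 7 to 71, and 0 to 0 for double-labelled against green cells.

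With equal weights the counts in the set were 1 for double-labelled against red and 1 for the F test. Among all genes they were 102 for E18.5 red against green (44 as reported), 6 for double-labelled against green (0), 15 for double-labelled against red (8), 586 for E14.5 (1703) and 71 for the F test (16). With 1 weight per array the set gave 5 for double-labelled against green, 3 for double-labelled against red, 9 for the interaction and 8 for the F test. All genes gave 206, 1110, 446, 644 and 1394 for E18.5 red against green, double-labelled against green, double-labelled against red, the interaction and the F test, and 8952 between stages in green cells. Without the narrow-range arrays the set gave 14 for E14.5 red against green (12 higher, 2 lower), 14 and 21 between stages in red and green cells (2 lower in each), 1 for double-labelled against red, 7 for the interaction and 2 for the F test, and all genes gave 179, 8, 29 (18 higher, 11 lower), 450 and 158 for E18.5 red against green, double-labelled against green, double-labelled against red, the interaction and the F test. With the replicate block the set gave 1, 8 and 1 for double-labelled against red, the interaction and the F test, and all genes gave 146, 4, 22, 470 and 102 in the order just given.

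With the arrays of 1 stage alone the set gave 0 for E18.5 red against green, and all genes gave 12, 4 for double-labelled against red and 6 for the F test. Quantile normalization gave 1 gene of the set and 28 genes in all for the F test. Without the low filter the set gave 2 for the interaction. All genes then gave 5 for double-labelled against red, and between stages 8297 in red (1957 higher, 6340 lower; 1685 and 2647 as reported) and 9968 in green cells (2569 and 7399; 2360 and 3273 as reported). Without stage centring the set gave 28 in red and 30 in green cells, of 12350 and 12521 genes. The cause of these moves was not tested, beyond fewer arrays where arrays were left out. With 3 arrays a group, the interval half-widths for E18.5 red against green cells were 0.32 to 0.86, with a median of 0.43. A difference within its gene's half-width could not be told from 0. Some larger differences also missed the adjusted threshold, such as that of Grin3a (-0.88, adjusted p 0.62 in limma).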
